A study of Mus musculus with 18 samples.

Results

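Of the 17 Dbx1-derived neurons of the preBötzinger complex (preBötC) with values, 6 were Evx-positive and 11 were Evx-negative. A neuron was Evx-positive if its library held 10 or more fragments of *Evx1* or of *Evx2*, and Evx-negative otherwise. The members were thus chosen by the fragment counts of these 2 genes, so their levels are a description, and all tests were on the other genes. With the limit at 10 fragments, 1 gene of the 32626 tested (0.00307%) had every Evx-positive neuron above every Evx-negative neuron. It was *Aph1b*, a subunit of the γ-secretase protease. How many such genes other choices of 6 of the 17 neurons would give was not counted. No gene passed the genome-wide threshold of the main test.

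*Evx1* and *Evx2* are the mouse even-skipped homeobox genes and encode transcription factors that act mainly as repressors. In the embryonic spinal cord, progenitors that express the homeobox gene *Dbx1* give rise to V0 interneurons. The ventral V0 neurons switch on Evx genes as they leave the cell cycle, and in them Evx1 keeps off *En1*, the marker of neighbouring V1 interneurons. Many Evx-expressing V0 neurons are glutamatergic, whereas the dorsal V0 neurons lack Evx and are largely inhibitory. In the hindbrain, Dbx1-derived neurons include the glutamatergic preBötC neurons that generate the inspiratory rhythm.

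The neurons came from slices of neonatal mice (P0, P1 or P2) that carried a Dbx1 cre allele and the Ai148 reporter, which expresses the Ca2+ indicator GCaMP6f after Cre recombination. Per the study's methods, the Ai148 parents were C57Bl/6J and the Dbx1 cre parents a mix of C57Bl/6J and CD1. Both groups share these alleles, and the Cre label marks descent from *Dbx1* progenitors rather than present *Dbx1* expression. Each inspiratory neuron was classed as Type-1, Type-2 or Unknown by whole-cell recording, and its cytoplasm gave 1 library. The study recorded from fewer slices than neurons, so some neurons shared a slice, and no label ties a neuron to its slice or animal. All tests treat the neurons as independent, so the p-values measure the spread between neurons and may be too small. Library totals ran from 2280477 to 13762335 fragments.

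Evx-positive neurons occurred in each electrical class. Neurons 5 and 18 were 2 of the 7 neurons of Type-1. Neurons 1, 2 and 14 were 3 of the 9 of Type-2, and Neuron 8 was the 1 Unknown neuron. By age they were 3 of 5 neurons at P0, 1 of 6 at P1 and 2 of 6 at P2. Among the Evx-negative neurons, 5 were Type-1 (numbered 4, 6, 15, 16 and 17), while the other 6 were Type-2 (numbered 3, 7, 9, 11, 12 and 13).

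*Evx2* (chromosome 2, 74652991 to 74659557, minus strand, GRCm38) was the more common of the pair. Neurons 5, 1, 2 and 14 held 1051, 544, 753 and 106 fragments of it. On the FPKM scale, which divides fragments by exon length and library total, these are 30.6, 23.5, 22.2 and 6.59. None of these 4 neurons held a fragment of *Evx1* (chromosome 6, 52313498 to 52318378, plus strand). *Evx1* had 2368 fragments in Neuron 18, which is 88.8 FPKM, and that neuron held 0 fragments of *Evx2*. Neuron 8 had 30 fragments of *Evx1* (1.15 FPKM) and 2 of *Evx2*. The 2 genes were thus past the limit in different neurons.

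The strength of the Evx signal differed widely among the 6 neurons. Among all genes with a fragment in its library, the leading Evx gene stood at the percentiles 95.0, 84.0, 77.9, 74.4, 45.2 and 32.1 in Neurons 18, 5, 1, 2, 14 and 8, in that order. Just inside the limit lay the 30 fragments of Neuron 8, and just outside it lay a single *Evx2* fragment in Neuron 9. The other 10 Evx-negative neurons held 0 fragments of both genes. Where the count was 0, as many as 3 fragments could have been missed, a floor of 0.0758 to 0.457 FPKM of *Evx1* and 0.0520 to 0.314 FPKM of *Evx2* in the Evx-negative libraries that covers counting error only. Neuron 12 was the shallowest library, and 10 fragments of *Evx1* there equal 1.52 FPKM, above the level in Neuron 8.

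Both Evx genes sit at the ends of Hox clusters, so their neighbours were examined. *Hoxa13* and *Hoxd13*, the nearest protein-coding Hox genes, had 0 fragments in all 17 neurons. *Evx1os*, an antisense RNA that overlaps *Evx1* (chromosome 6, 52308389 to 52314832, minus strand), had 29 fragments in Neuron 18 and 232 in the Evx-negative Neuron 6, in which *Evx1* was at 0. The strand setting of the counting is not stated in the sources used here, so reads from *Evx1* and *Evx1os* cannot be told apart where they overlap.

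**Figure D1:**
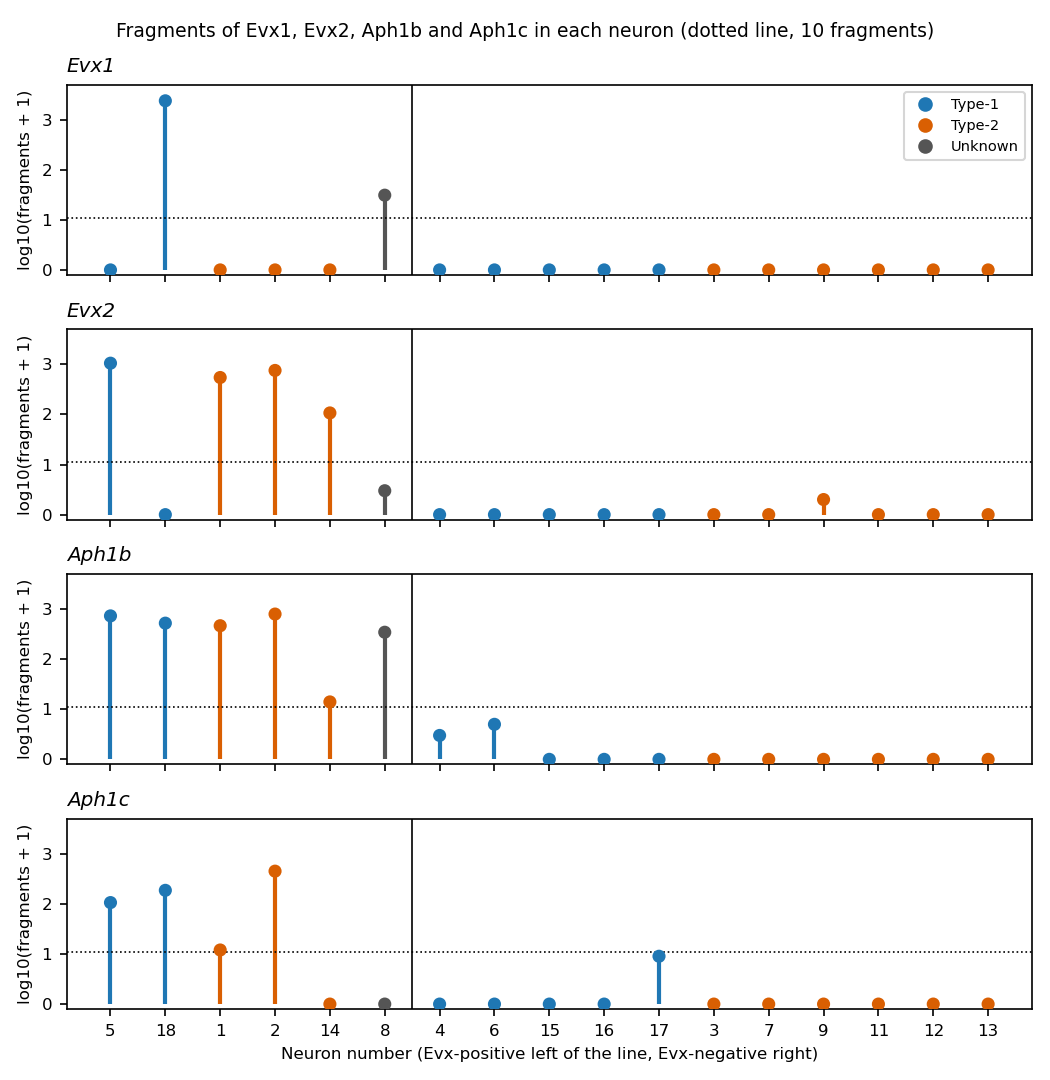
Fragments of *Evx1*, *Evx2*, *Aph1b* and *Aph1c* as log10(fragments + 1) in each of 17 neurons, coloured by electrical type, with Evx-positive neurons left of the vertical line and a dotted line at 10 fragments. *Aph1b* is past 10 fragments in the 6 Evx-positive neurons and reaches at most 4 fragments in the 11 others.

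The comparison of Evx-positive with Evx-negative neurons ran over 32626 genes that had a fragment in at least 1 neuron. The question was which other genes differ between Dbx1-derived neurons with and without these V0 factors. In edgeR's quasi-likelihood test, 0 genes were higher and 0 lower (each 0% of the genes tested) when a call needed an adjusted p under 0.01 with a log2 fold change (L2FC) beyond 1.5 either way. No gene had an adjusted p under 0.05 either, and the smallest was 0.0746, shared by 1509 genes. At an unadjusted p under 0.05 the same edgeR fit had 3377 genes higher (10.4%) and 3584 lower (11%) in Evx-positive neurons. These shares depended on sparsely detected genes. In an edgeR fit of the 14707 genes with 10 or more fragments in at least 3 neurons, 621 (4.22%) had an unadjusted p under 0.05. The smallest adjusted p in that fit was 0.445. In simulated counts of 6 against 11 neurons, edgeR gave 14.6% of the unchanged genes an unadjusted p under 0.05.

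Other tools differed in the number of calls. DESeq2 called 75 genes higher (0.515%) and 159 lower (1.09%) of the 14568 it tested at the same thresholds. Of these 234 genes, 73 had 10 or more fragments in at most 2 neurons and 45 had an exact permutation p under 0.05. The voom method of limma called 3 genes, *Aph1b* higher and *Bola3* and *Sptlc1* lower. In simulated counts of 6 against 11 neurons, DESeq2 called 108 unchanged genes beside 112 changed ones. There voom called 3 beside 23, and edgeR 1 beside 113, of 200 changed genes.

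For single genes, log2(FPKM + 1) was compared with an exact permutation test (two-sided) over the 12376 ways to choose 6 of 17 neurons, whose smallest possible p is 8.08e-05. Of all genes, 710 (2.18%) were higher in Evx-positive neurons and 164 (0.503%) lower at p under 0.05. Among the 14707 genes with 10 or more fragments in at least 3 neurons the counts were 481 higher (3.27%) and 154 lower (1.05%). No permutation p stayed under 0.05 after adjustment over all genes. In Fisher's exact test on the number of neurons with 10 or more fragments, 258 genes (0.791%) had p under 0.05, and none after adjustment. Below, "higher" and "lower" describe group means, and no gene passed a correction in these exact tests.

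*Aph1b* (chromosome 9, 66775202 to 66795490, minus strand) separated the groups. It encodes one form of the APH-1 scaffold of γ-secretase, the membrane protease that cuts Notch receptors and the amyloid precursor protein. Neurons 5, 18, 1, 2, 14 and 8 held 728, 521, 463, 792, 13 and 343 fragments of it. Among Evx-negative neurons it had 2 fragments in Neuron 4, 4 in Neuron 6 and 0 in the other 9. The groups did not overlap, which was so for 1 gene of those tested in this direction (0.00307%) and for 0 in the other (0%).

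The mean log2(FPKM + 1) of *Aph1b* was 3.33 ± 1.36 (SD, n = 6) in Evx-positive and 0.0295 ± 0.0706 (SD, n = 11) in Evx-negative neurons. The difference of 3.30 had the smallest p the exact permutation test can give, 8.08e-05, and an adjusted p of 1 over all genes. At that p a single gene could not have had an adjusted p under 0.05. edgeR estimated an L2FC of 9.02 with a standard error of 1.77 and an adjusted p of 0.0746. The DESeq2 adjusted p was 4.64e-08 and that of limma's voom was 0.00439. *Aph1b* was thus past the threshold in those tools, whose calls of unchanged genes in simulated counts are given above, and short of it in edgeR. The separation depends on the limit for Evx. At 100 or more fragments, Neuron 8 with its 343 *Aph1b* fragments became Evx-negative, and the edgeR L2FC was 4.47 with an adjusted p of 0.201. At 1 or more, Neuron 9 with 0 *Aph1b* fragments became Evx-positive, and the edgeR L2FC was 8.67 with an adjusted p of 0.0951. The 2 Type-1, 3 Type-2 and 1 Unknown Evx-positive neurons each held more than any Evx-negative neuron of either type.

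*Aph1c* is a duplicate of *Aph1b* that lies next to it (chromosome 9, 66814994 to 66834726, minus strand). Neurons 5, 18, 1 and 2 held 105, 185, 11 and 448 fragments of it. Neurons 14 and 8 had 0 fragments, and the Evx-negative group held 8 fragments in Neuron 17 and 0 elsewhere. Evx-positive neurons exceeded the others by 1.33 in mean log2(FPKM + 1) (exact permutation p = 0.00630), and edgeR gave an L2FC of 7.66 with a standard error of 2.16 and an adjusted p of 0.0746. The groups overlapped because 2 Evx-positive neurons were at 0.

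By the study's methods, uniquely aligned reads were counted, and reads that match both genes equally have no unique place. However, *mt-Co3* and its copy, described further on, had nearly the same counts in each neuron. How reads shared by *Aph1b* and *Aph1c* were counted is thus not known. Of the 4861 windows of 50 bases in an annotated *Aph1b* transcript, 19.7% occur unchanged in that of *Aph1c* (18.5% of the 5156 windows of the latter; GENCODE M21, GRCm38). The first 60 coding bases, shown here because they are where the 2 genes first diverge, are given 5′ to 3′ with the 9 differing bases in capitals.
Aph1b: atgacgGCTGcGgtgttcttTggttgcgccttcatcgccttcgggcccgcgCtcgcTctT
Aph1c: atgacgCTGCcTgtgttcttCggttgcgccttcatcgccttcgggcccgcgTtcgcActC
The counts of *Aph1b* and *Aph1c* differed by up to 623 fragments in a neuron, and those of *mt-Co3* and its copy by up to 756. The correlation (Pearson's r) of log2(FPKM + 1) over the neurons was 0.77 for the first pair and 1 for the second. With the FPKM of both genes summed, Evx-positive neurons were higher by 3.49 in mean log2(FPKM + 1), given without a test because *Aph1b* alone already separates the groups.

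Other γ-secretase genes, examined after *Aph1b* was seen, did not share its pattern. *Aph1a*, the more widespread APH-1 form, differed by 0.15 in mean log2(FPKM + 1) (exact permutation p = 0.878). *Psen2*, a catalytic subunit, differed by 0.76 (exact permutation p = 0.380), and the substrate receptor nicastrin, *Ncstn*, by 0.02 (exact permutation p = 0.984). *Psenen*, which encodes the subunit PEN-2, was lower by mean (difference -2.04, exact permutation p = 0.00703). Its FPKM was 0, 15.6 and 63.7 (lowest, median and highest) in Evx-positive neurons and 8.85, 57.8 and 134 in Evx-negative neurons, so the groups overlapped.

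A further set of genes was detected in most Evx-positive neurons and in few or no others. These genes were chosen for their small edgeR p in this comparison and for detection in at least 4 Evx-positive neurons, as were *Aph1b*, *Aph1c*, *Kcnq3*, *Id4* and *Ikzf4*, so the p-values of all of them are a description and not independent support. *Zfp446*, a zinc finger gene, had 1, 1374, 233, 0, 171 and 12 fragments in Neurons 5, 18, 1, 2, 14 and 8, and 0 in all 11 Evx-negative neurons (exact permutation p = 0.000970). Against a floor of 3 fragments per library its mean FPKM was at least 85.7-fold higher, and at least 38.4-fold without Neuron 18. *Ccdc51*, which encodes a mitochondrial potassium channel, had 299, 467, 152 and 16 fragments in Neurons 1, 2, 14 and 8 and 0 elsewhere, which is at least 55.6-fold higher (exact permutation p = 0.00630). It was listed in the Type-2 and Unknown neurons alone among the 6. *Ccdc189* had 224, 43, 4, 96 and 65 fragments in Neurons 5, 18, 2, 14 and 8, and 0 in Neuron 1 and in the Evx-negative neurons, at least 23.4-fold higher (exact permutation p = 0.000970).

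*Ing4*, a subunit of a histone acetyltransferase complex, and *Fancc*, of the Fanconi anaemia DNA repair complex, were each past 10 fragments in 4 of 6 Evx-positive and 0 of 11 Evx-negative neurons. At 1 or more fragments the counts were 4 of 6 and 3 of 11 for *Ing4* and 4 of 6 and 2 of 11 for *Fancc*. *Ing4* reached 739 fragments in Neuron 2 but was at 0 in Neurons 18 and 14. *Fancc* reached 771 fragments in Neuron 18 but was at 0 in Neurons 1 and 14. Each of these 5 genes was past 10 fragments in 4 of the 6 neurons, and none of them in all 6.

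Differences in mean were also seen for genes that Evx-negative neurons held. *Id4*, an inhibitor of basic helix-loop-helix factors, had FPKM of 6.16, 24.2 and 268 (lowest, median and highest) in Evx-positive and 3.57, 14.1 and 28.4 in Evx-negative neurons (difference in mean log2(FPKM + 1) 1.36, exact permutation p = 0.0524). Without Neuron 18 the difference in *Id4* was 0.75 (exact permutation p = 0.190). *Ikzf4*, an Ikaros-family zinc finger factor, had 0.0280, 8.90 and 39.5 against 0, 0.0188 and 2.91 (difference 2.25, exact permutation p = 0.00477). *Id4* was past 10 fragments in all 17 neurons and *Ikzf4* in 5 of 6 and 4 of 11, and the groups overlapped for both.

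Likeness to the summed FPKM of *Evx1* and *Evx2* was measured by Pearson's r of log2(FPKM + 1) over the 17 neurons, as a description. The 5 most similar genes with 10 or more fragments in at least 4 neurons were *Kcnq3* (r = 0.93), *Aph1b* (r = 0.90), *Gm42440*, an unnamed gene model (r = 0.88), *Insyn2a*, an inhibitory synapse gene (r = 0.82), and *Aph1c* (r = 0.79). These values follow in part from the zeros that the Evx-negative neurons share.

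*Insyn2a* was past 10 fragments in all 6 Evx-positive neurons (775, 190, 73, 1011, 75 and 16 in Neurons 5, 18, 1, 2, 14 and 8). In the Evx-negative group, Neuron 17 had 67 and Neuron 12 had 29 fragments, and the others had at most 2. Mean log2(FPKM + 1) was 2.17 higher in Evx-positive neurons, given without a test because the gene was chosen for its likeness to Evx. *Gm42440* had 264, 614, 174 and 208 fragments in Neurons 5, 18, 1 and 2, 0 in Neurons 14 and 8, and 78 in the Evx-negative Neuron 15.

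**Figure D2:**
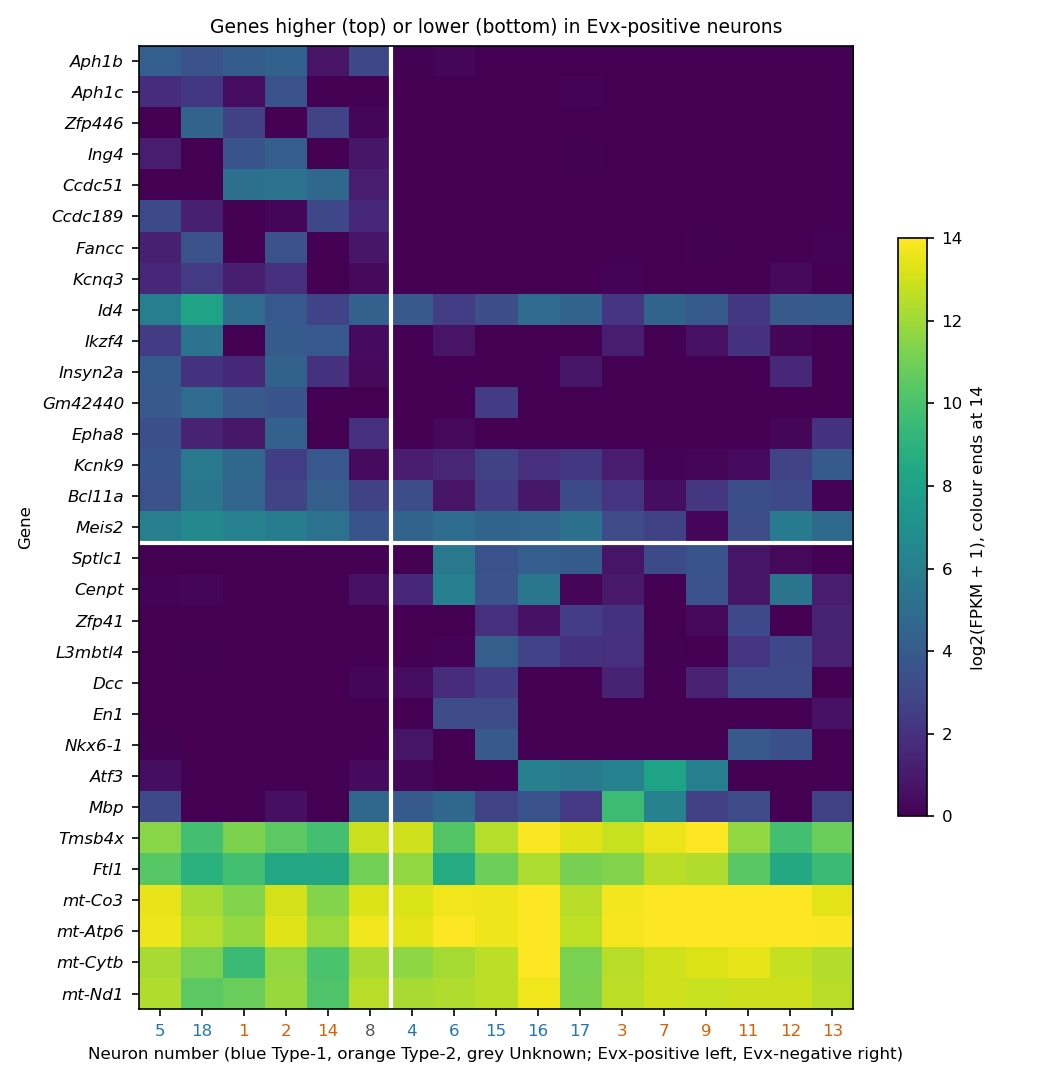
Heat map of log2(FPKM + 1) for genes higher (top) or lower (bottom) by mean in Evx-positive neurons, with 1 column per neuron (Evx-positive left of the white line). *Aph1b* is above 0 in all 6 Evx-positive columns and near 0 in the other 11, whereas the other rows overlap between the groups: some, such as *Ccdc51*, are at 0 in part of the group where they are higher, and others, such as *Meis2*, are present in all 17 columns.

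Ion channel genes set the membrane properties by which the electrical classes were defined. Of 55 voltage-gated and leak channel genes tested, 5 were higher (9.09%) and 0 lower in Evx-positive neurons at an exact permutation p under 0.05, and 0 were called by edgeR. The shares were 2.18% and 0.503% over all genes tested, and 3.27% and 1.05% among the detected genes. Among the 53 with 10 or more fragments in at least 3 neurons, 31 had the higher mean in Evx-positive neurons and 22 the lower. Over all 14707 genes at that level of detection the counts were 7903 and 6804. The median difference was 0.28 in log2(FPKM + 1) for the 53 channel genes, beside 0.065 for all 14707.

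*Kcnq3*, which encodes a subunit of the channel for the slow, muscarine-sensitive potassium current, had the smallest p of the list. Neurons 5, 18, 1, 2, 14 and 8 held 252, 562, 105, 325, 0 and 38 fragments of it. In Evx-negative neurons it had 12 fragments in Neuron 3, 9 in Neuron 12 and at most 1 elsewhere. The difference was 1.20 (exact permutation p = 0.00105), with an edgeR L2FC of 5.93, a standard error of 1.98 and an adjusted p of 0.103.

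The others described here were a pair of leak channels and a calcium channel. *Kcnk3* (TASK-1) had FPKM of 0, 5.01 and 11.6 in Evx-positive and 0, 0 and 5.04 in Evx-negative neurons (difference 1.81, exact permutation p = 0.00606). *Kcnk9* (TASK-3) had 0.313, 12.1 and 50 against 0.12, 1.80 and 14.5 (difference 1.81, exact permutation p = 0.0279). Both encode acid-sensitive background potassium channels. *Cacna1c* (the L-type Cav1.2 subunit) had 0.141, 1.33 and 8.71 against 0, 0.0611 and 4.12 (exact permutation p = 0.0493). The groups overlapped for each of them. *Kcna1* (Kv1.1) was at 0 in the Evx-positive neurons and had 97, 109 and 302 fragments in Neurons 4, 3 and 7 (exact permutation p = 0.353).

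**Figure D3:**
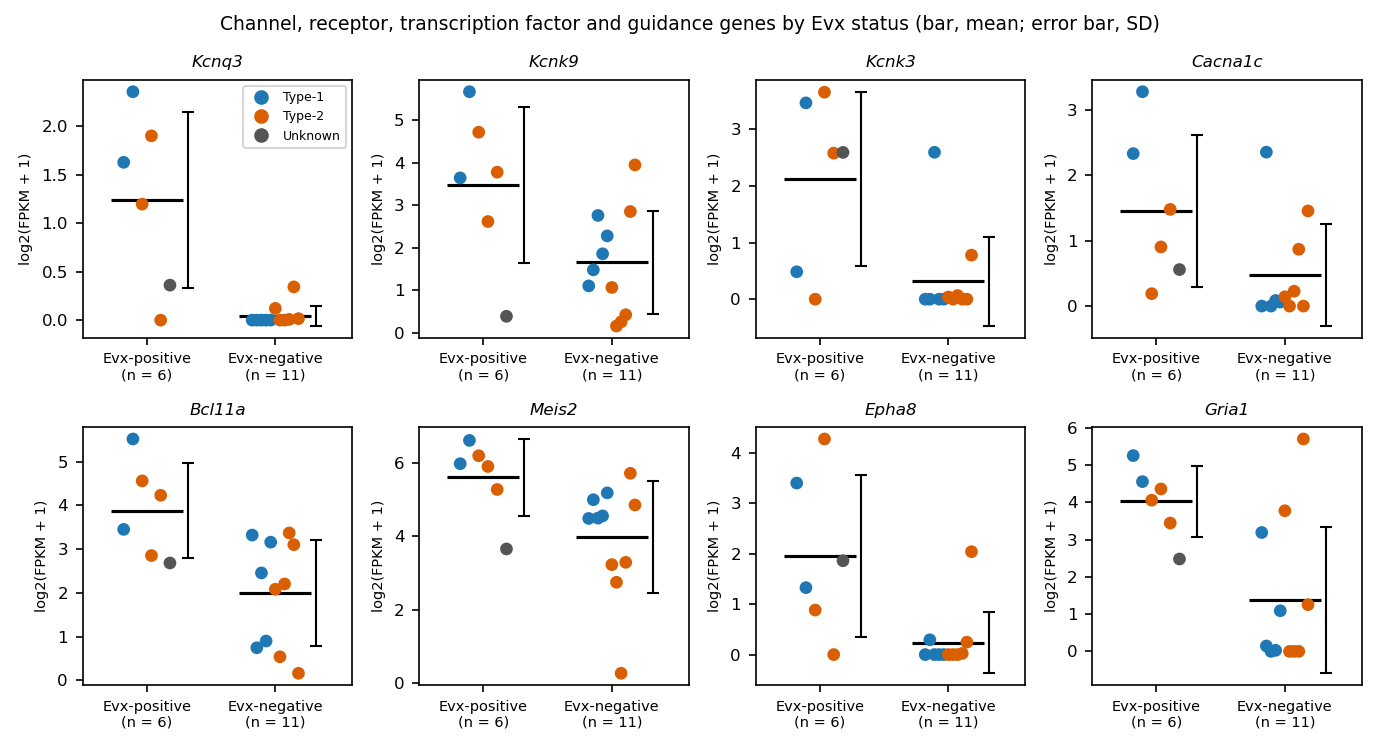
Each panel plots log2(FPKM + 1) of 1 gene in the 6 Evx-positive and 11 Evx-negative neurons, coloured by electrical type, with a bar at the mean and an error bar of 1 SD. Means are higher in Evx-positive neurons in all 8 panels, and in every panel at least 1 Evx-positive neuron lies within the Evx-negative range.

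Of 73 lineage transcription factor genes tested, 2 were higher (2.74%) and 0 lower at an exact permutation p under 0.05, and 0 were called by edgeR. That share is near the 2.18% of all genes and is no result about the list. Their median difference was -0.0021 in log2(FPKM + 1), beside -0.0035 for all genes tested. *Bcl11a*, a zinc finger factor of postmitotic neurons, had FPKM of 5.43, 13.9 and 44.8 in Evx-positive and 0.120, 3.61 and 9.35 in Evx-negative neurons (difference 1.88, exact permutation p = 0.00663). *Meis2*, a homeobox cofactor of Hox proteins, had 11.6, 60.2 and 96.5 against 0.204, 21.5 and 51.4 (difference 1.62, exact permutation p = 0.0306). Both were detected in all 17 neurons, with overlap between the groups.

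*Dbx1* itself had 0 fragments in every neuron. *Dbx2*, its relative, was past 10 fragments in 3 of 6 Evx-positive and 6 of 11 Evx-negative neurons (exact permutation p = 0.982). *En1* was at 0 in all 6 Evx-positive neurons and had 99, 181 and 10 fragments in Neurons 6, 15 and 13 of the Evx-negative group, which at this number of neurons gave a Fisher's exact p of 0.515. *Nkx6-1*, a ventral progenitor factor, was past 10 fragments in 0 of 6 and in 4 of 11 neurons (Fisher's exact p = 0.237). *Nkx6-2* was past that limit in 4 of 6 and 6 of 11 neurons.

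The factors of inhibitory and dorsal interneurons described here had no exact permutation p under 0.05. *Pax2*, which is expressed in many inhibitory interneurons, was past 10 fragments in 6 of 6 Evx-positive and 4 of 11 Evx-negative neurons (Fisher's exact p = 0.0345), with 11 fragments in Neuron 2. At 1 or more fragments it was 6 of 6 and 7 of 11 (Fisher's exact p = 0.237), and the exact permutation p of its level was 0.226. *Lhx1* was past the limit in 4 of 6 and 6 of 11 neurons, and *Lhx5* in 3 of 6 and 6 of 11. *Lbx1*, a dorsal marker, had 47 fragments in Neuron 17 and at most 2 elsewhere. *Pax7*, of dorsal progenitors, had 1 fragment in Neuron 4 and 0 in the others.

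Genes of the transmitter phenotype were present on both sides. *Slc17a6*, the vesicular glutamate transporter VGLUT2, was past 10 fragments in 6 of 6 Evx-positive and 10 of 11 Evx-negative neurons, with FPKM of 4.05, 99.5 and 196 against 0, 21.8 and 246 (difference 1.54, exact permutation p = 0.220). *Slc32a1*, the vesicular transporter of GABA and glycine, was past the limit in 1 of 6 Evx-positive neurons (Neuron 8, 29 fragments) and in 6 of 11 Evx-negative neurons (exact permutation p = 0.1). *Slc6a5*, the neuronal glycine transporter GlyT2, was detected in 3 of 6 and 6 of 11 neurons, *Gad1* in 3 of 6 and 6 of 11, and *Gad2* in 4 of 6 and 7 of 11. *Chat*, which makes acetylcholine, had 121 fragments in the Evx-positive Neuron 1 and 0 in the other 16 neurons. None of the 4 glutamatergic, 6 GABA and glycine or 4 cholinergic genes tested had an exact permutation p under 0.05.

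Among 38 ionotropic receptor genes tested, 2 were higher (5.26%, beside 2.18% of all genes and 3.27% of detected genes) and 0 lower at an exact permutation p under 0.05. *Gria1*, the AMPA receptor subunit GluA1, had FPKM of 4.59, 17.6 and 37.3 in Evx-positive and 0, 0.106 and 51.2 in Evx-negative neurons, with 10 or more fragments in 6 of 6 and 5 of 11 (difference 2.65, exact permutation p = 0.00881). *Gabra3*, a GABA-A receptor subunit, had 0, 9.09 and 29.6 against 0, 0.0548 and 10.9 (difference 1.77, exact permutation p = 0.0447). *Gria1* was also high in single Evx-negative neurons, with 706 fragments in Neuron 12 and 715 in Neuron 3.

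Axon guidance genes gave 4 higher (6.9%) and 1 lower (1.72%) of 58 tested at an exact permutation p under 0.05, beside 2.18% and 0.503% of all genes and 3.27% and 1.05% of detected genes. *Epha8*, an ephrin receptor, had 370, 66, 22, 701 and 113 fragments in Neurons 5, 18, 1, 2 and 8, 0 in Neuron 14, and 93 in the Evx-negative Neuron 13 (difference 1.72, exact permutation p = 0.00517). *Ntng1*, *Unc5c* and *Cntn1*, which encode netrin-G1, a repulsive netrin receptor and contactin 1, differed by 1.46, 0.76 and 1.45 in mean log2(FPKM + 1) (exact permutation p = 0.0305, 0.0304 and 0.0482). *Dcc*, the attractive netrin receptor that guides commissural axons, was the lower one. It was past 10 fragments in 1 of 6 Evx-positive neurons (18 fragments in Neuron 8) and 7 of 11 Evx-negative neurons, up to 1308 fragments in Neuron 11 (difference -1.19, exact permutation p = 0.0337).

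Of 25 Hox genes tested, 0 were higher and 1 lower (4%, beside 0.503% of all genes), a single gene. *Hoxb2* had FPKM of 0, 0.0333 and 0.571 in Evx-positive and 0, 1.84 and 7.59 in Evx-negative neurons, with 10 or more fragments in 1 of 6 and 9 of 11 (difference -1.21, exact permutation p = 0.0145). None of 29 neuropeptide and opioid receptor genes had an exact permutation p under 0.05. *Tacr3*, the neurokinin B receptor, was at 0 in the Evx-positive neurons and had 607, 484, 7 and 23 fragments in Neurons 15, 3, 12 and 13 (exact permutation p = 0.249). Of 19 immediate early genes, 1 was higher (5.26%, beside 2.18% of all genes), *Fosl2* (exact permutation p = 0.0266). *Atf3*, a stress-induced factor, reached at most 8 fragments in Evx-positive neurons and 1180 to 6770 in Neurons 3, 7, 9, 16 and 17 (exact permutation p = 0.0955). The mean log2(FPKM + 1) of microglial markers was 5.80 to 8.41 in those neurons. In Neurons 4 and 8, with 2 and 6 fragments of *Atf3*, it was 6.30 and 7.43. The part of microglial RNA in *Atf3* was not tested.

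The genes lower in Evx-positive neurons included several that most Evx-negative neurons held. *Sptlc1*, a subunit of the enzyme that starts sphingolipid synthesis, had 1 fragment in Neuron 5 and 0 in the other 5 Evx-positive neurons. It had 10 or more fragments in 8 of 11 Evx-negative neurons, with 785 in Neuron 6 and 709 in Neuron 17, and at most 2 in Neurons 4, 12 and 13. The difference was -2.34 (exact permutation p = 0.00840), with an edgeR L2FC of -9.96, a standard error of 2.42 and an adjusted p of 0.0746. *Bola3*, an iron-sulfur cluster assembly gene named here after its values were seen, had 247 fragments in Neuron 8 and at most 1 in the other Evx-positive neurons, whereas 10 of 11 Evx-negative neurons held 149 to 861 (difference -3.01, exact permutation p = 0.00154).

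*Cenpt*, a centromere gene, was past 10 fragments in 1 of 6 and 9 of 11 neurons (difference -2.44, exact permutation p = 0.0170). *L3mbtl4*, a chromatin reader, and *Zfp41*, a zinc finger gene, were past that limit in 0 of 6 and 7 of 11 neurons each. At 1 or more fragments the counts were 2 of 6 and 9 of 11 for *L3mbtl4* and 1 of 6 and 7 of 11 for *Zfp41*. Apart from *Bola3*, these genes too were chosen for their small edgeR p and for detection in at least 7 Evx-negative neurons. In no case were the groups fully apart, since 1 or more Evx-negative neurons were also at 0.

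Mitochondrial transcripts were lower in Evx-positive neurons. All 13 mitochondrial protein genes, a set examined after 4 of them were named for their small edgeR p in this comparison, had the lower mean, with differences from -1.5 to -0.78 in log2(FPKM + 1), and 9 of the 13 had an exact permutation p under 0.05, beside 0.503% of all genes and 1.05% of detected genes in that direction. These genes make up 1 shared measure, the mitochondrial share given further on, whose adjusted p was 0.147 (exact permutation test). For *mt-Co3*, a cytochrome oxidase subunit, the FPKM was 2586 at the lowest and 11838 at the highest in Evx-positive neurons, and 5747 and 26595 in Evx-negative neurons (difference -1.32, exact permutation p = 0.00347, edgeR adjusted p = 0.0746). *mt-Atp6*, *mt-Cytb* and *mt-Nd1* differed by -1.20, -1.5 and -1.26. *Gm28437*, an annotated copy of *mt-Co3* on chromosome 1, had nearly the same count in each neuron (at most 756 fragments apart), so the 2 cannot be told apart.

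*Tmsb4x*, which encodes an actin-binding peptide, and *Ftl1*, the ferritin light chain, had differences of -1.44 and -1.36 in mean log2(FPKM + 1) (exact permutation p = 0.0701 and 0.0638). Without the Unknown neuron their differences were -1.82 and -1.67 (exact permutation p = 0.0318 and 0.0348). The highest FPKM was 24765 for *Tmsb4x* (Neuron 9) and 6105 for *Ftl1* (Neuron 7). In the Evx-positive group it was 7443 and 2057, both in Neuron 8. Mean log2(FPKM + 1) of microglial markers was 7.33, 8.00 and 7.43 in Neurons 9, 7 and 8. The part of microglial RNA in these differences was not tested.

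**Figure D4:**
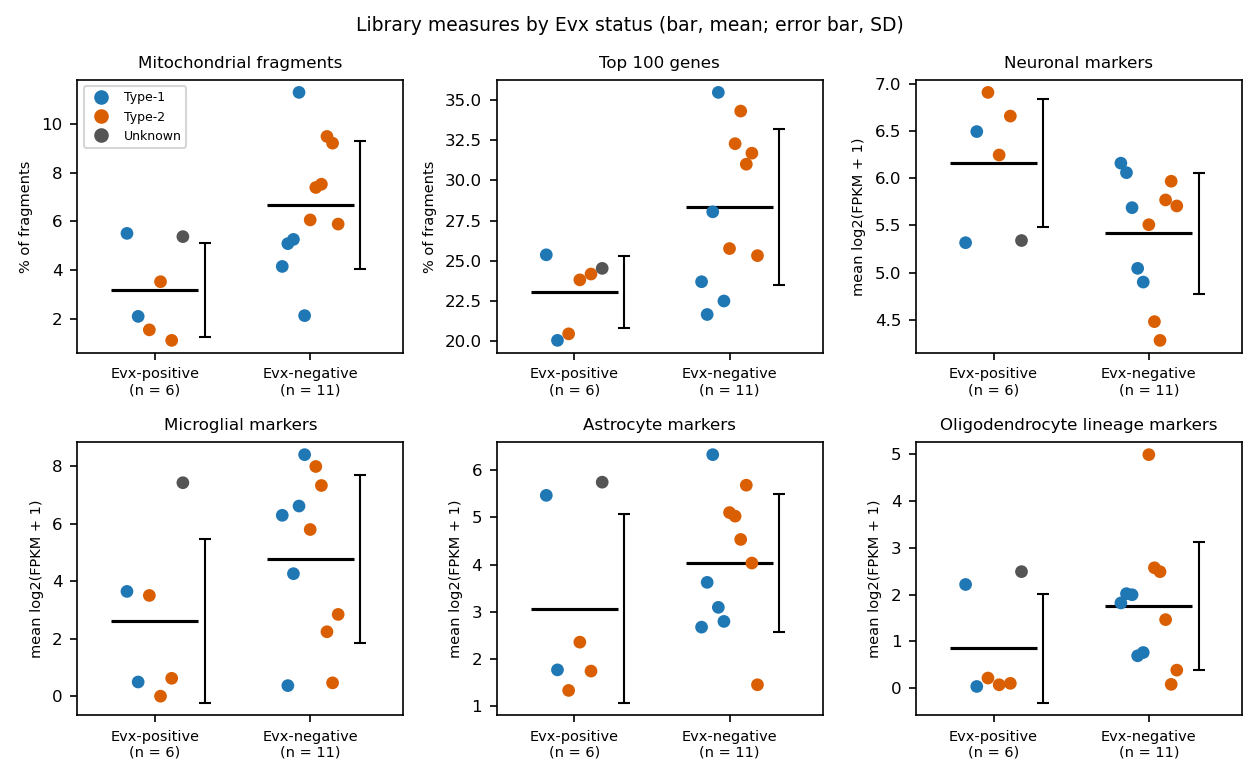
Shares of fragments (mitochondrial genes, the 100 most abundant genes) and mean log2(FPKM + 1) of 4 marker lists in the 6 Evx-positive and 11 Evx-negative neurons, coloured by electrical type, with a bar at the mean and an error bar of 1 SD. The mitochondrial share is 1.11 to 5.50% in Evx-positive neurons and 2.13 to 11.3% in Evx-negative neurons, with overlap in every panel.

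Several measures of the libraries moved with Evx status. The mitochondrial share of fragments was 3.19% ± 1.92 (SD, n = 6) in Evx-positive and 6.68% ± 2.63 (SD, n = 11) in Evx-negative neurons (exact permutation p = 0.0133, adjusted p = 0.147 over 11 measures). The 100 most abundant genes took 23.1% ± 2.24 and 28.3% ± 4.87 of the fragments (exact permutation p = 0.0278, adjusted p = 0.153). Total fragments (exact permutation p = 0.493) and genes with a fragment (p = 0.663) did not differ beyond the spread. With the mitochondrial share as a covariate in edgeR, 0 genes were called, 1551 had an adjusted p under 0.05, and *Aph1b* had the smallest, 0.0264, with an L2FC of 8.32.

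RNA of other cell types was present in these libraries and was unevenly spread. All 14 microglial markers had the lower mean in Evx-positive neurons, with a median difference of -2.26 and 0 of 14 with an exact permutation p under 0.05. The mean log2(FPKM + 1) of that list ranged from 0.00751 to 7.43 in Evx-positive and from 0.375 to 8.41 in Evx-negative neurons. Astrocyte markers were lower for 8 of 10 genes, with *S100b* at p = 0.0139 in the exact permutation test, and oligodendrocyte lineage markers for 8 of 8 genes. Of 5 blood genes, 4 had the higher mean in Evx-positive neurons. Neuronal markers were higher for 6 of 6 genes (median difference 0.75), and *Tubb3* had an exact permutation p of 0.0493. Over all 14707 genes with 10 or more fragments in at least 3 neurons, 7903 had the higher mean and 6804 the lower. With the microglial score as a covariate in edgeR, 0 genes were called, 5327 had an unadjusted p under 0.05, and the L2FC of *Aph1b* was 8.86 (adjusted p = 0.0924). The part of the other marker lists in the gene differences was not tested.

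The position of the whole transcriptome had no exact permutation p under 0.05 for Evx status. Over the 500 most variable genes, the first principal component (30.3% of the variance) had a median score of -23.5 in Evx-positive and 14.6 in Evx-negative neurons (exact permutation p = 0.175). Without the Unknown neuron the difference in mean score on the first component was -35.7 (exact permutation p = 0.0586). The second component (10.2%) had medians of -13.1 and 3.16 (exact permutation p = 0.324). The median Spearman correlation over all genes was 0.576 for the 15 pairs of Evx-positive neurons, 0.531 for the 55 Evx-negative pairs and 0.549 for the 66 mixed pairs. For 4 of the 6 Evx-positive neurons the most correlated neuron was also Evx-positive, as it was for 6 of the 11 Evx-negative neurons. All these pairs share the amplification method, and the correlations are a description only.

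The effect of Evx status was also compared between Type-1 and Type-2 neurons by an interaction term in edgeR over 31541 genes. No gene had an adjusted p under 0.05, and the smallest was 0.707. Among the Evx-positive neurons 2 were Type-1 and 3 Type-2, and the power of this test was not measured.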

How the data were processed

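RNA of each neuron was copied to cDNA and amplified by the SMART-Seq HT protocol, and read pairs were sequenced. The authors trimmed the reads and aligned them with STAR 2.7.7a to GRCm38. By their account, uniquely aligned fragments were counted per gene with featureCounts, although *mt-Co3* and its copy had nearly the same counts. The deposited counts are whole numbers without normalization. The deposited FPKM values are those counts divided by gene length and library total, which was checked on the files. Gene lengths were deposited too. Values of 17 neurons were used, 0 columns belonged to other samples, and Sample 10 was not analysed here.

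Evx status was derived from the counts. Genes with a fragment in at least 1 neuron, without *Evx1* and *Evx2*, entered the quasi-likelihood F-test of edgeR 4.0.16 (R 4.3.3) with TMM scaling, no covariate and Benjamini-Hochberg adjustment, and the standard error is the absolute L2FC over the square root of F. DESeq2 1.42.0 and limma 3.58.1 were alternatives. Exact tests used log2(FPKM + 1) in Python 3.11.15 with SciPy 1.17.1. The steps were tested on simulated data of 6 against 11 neurons, in which 200 of 29891 genes changed by an L2FC of 6. Of the changed genes edgeR called 56.5%, DESeq2 56% and voom 11.5%. Unchanged genes called numbered 1 in edgeR, 108 in DESeq2 and 3 in voom.

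The groups and gene lists were chosen with earlier results of these data known. Named genes were the 10 higher and 10 lower with the smallest edgeR p (detected in at least 4 Evx-positive or 7 Evx-negative neurons), up to 4 members of each list with an unadjusted edgeR p under 0.05, a set of lineage and transmitter genes given whatever their values, neighbours of the Evx genes, and the 5 genes most correlated with them. List members with an exact permutation p under 0.05 were added. Symbols were matched to GENCODE M21 (53186 of 55367). Some list members are not reported here.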

Additional observations from a re-analysis of the deposited data

Results flagged for a closer look

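In the 6 Evx-positive neurons, 61 values were examined for a single neuron far from the rest, and 12 were past the Dixon limit of 0.625 (gap over range). Chance alone passes about 1 in 20 such groups, and genes listed at 0 in 5 of 6 neurons pass it by construction, with a ratio of 1 or close to it.

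The lowest value of *Aph1b* was that of Neuron 14 (0.647), whose 13 fragments still exceeded the 4 of the highest Evx-negative neuron. Neuron 8, the Unknown neuron with the fewest Evx fragments, was the highest of the 6 for *Zfp41* (1), *Lbx1* (1), *Pdgfra* (1), *Slc32a1* (0.836) and *Dcc* (0.74). The first 3 rest on 1 or 2 fragments.

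Neuron 5 was the highest for *Sptlc1* (1), *Nkx6-1* (1) and the mean of the endothelial markers (0.734), Neuron 18 for *L3mbtl4* (0.654) and *Evx1os* (1), and Neuron 1 for *Chat* (1).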

How the results depend on the processing

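The count of called genes was 0 in edgeR and stayed 0 in 12 of 16 other fits and in all 17 fits that left out 1 neuron. It was 234 with DESeq2 at its defaults, 175 with DESeq2 without replacement of outlier counts, 3 with limma's voom and 18 with postnatal day as a covariate in edgeR, of which 17 were lower. With that covariate 292 genes had an adjusted p under 0.05, and 1551 with the mitochondrial share. The cause was not tested. The genes with an exact permutation p under 0.05 numbered 874, and 781 to 983 over its alternatives. Detection at 1 fragment gave 402 genes with a Fisher p under 0.05 in place of 258. The difference in genes per library was 468 and became -469 without the Unknown neuron, with neither past the threshold. The *Aph1b* L2FC was 8.81 to 10.2 with each neuron left out (edgeR adjusted p 0.0726 to 0.102) and 4.47 (Evx limit of 100 fragments) to 10.5 (electrical type as a covariate) in the other fits (adjusted p 4.64e-08 to 0.445). Of 1001 alternative values for named genes in the exact test, 915 kept their direction and side of 0.05, 32 lost it, 20 gained it and 34 changed sign with neither value past it. The covariates for the mitochondrial share and microglial score, and the sum of *Aph1b* and *Aph1c*, were chosen after seeing the data. Without the Unknown neuron, *Dcc*, *Zfp41* and *Fosl2* had exact permutation p of 0.0533, 0.0717 and 0.0753. Leaving out 1 neuron took the highest exact permutation p to 0.0831 for *Kcnk9* (without Neuron 18) and 0.0767 for *Meis2* (without Neuron 18), and both also exceeded 0.05 without Neuron 1, as did *Meis2* without Neurons 2 or 5. No paired analysis was possible because the groups share no replicate numbers that pair neurons. The depth of single neurons limits detection, and a count of 0 is not absence.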

Other observations

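Among neuropeptide genes, 0 of 24 had an exact permutation p under 0.05. The following were named after their values were seen. *Reln*, which encodes the secreted protein reelin, had 10 or more fragments in 5 of 6 Evx-positive and 6 of 11 Evx-negative neurons (p = 0.143), *Sst* in 4 of 6 and 8 of 11 (p = 0.918), *Tac1* in 3 of 6 and 5 of 11 (p = 0.488), and *Penk* in 6 of 6 and 8 of 11 (p = 0.649), all by exact permutation tests.

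Some chemokine and cytokine genes are given here as values, and were named after those values were seen. *Ccl7* had 11774, 556, 7966, 7620 and 5680 fragments in Neurons 3, 7, 9, 16 and 17 and 0 in the other 12 neurons (exact permutation p = 0.102). *Cxcl2* had 2149 to 3502 fragments in Neurons 3, 7, 16 and 17, 95 in Neuron 9 and at most 1 elsewhere (exact permutation p = 0.102). *Il1b* was past 10 fragments in 4 Evx-negative neurons and 0 Evx-positive ones. *Ccl4* was not limited to one group, with 514 and 2344 fragments in the Evx-positive Neurons 1 and 8 and 10 or more in 7 of 11 Evx-negative neurons, and *Ccl2* had 69 fragments in Neuron 8. Neurons 3, 7, 9, 16 and 17 had mean microglial marker levels of 5.80, 8.00, 7.33, 6.62 and 8.41 in log2(FPKM + 1), and the part of microglial RNA in these values was not tested. Which genes made up the 17 lower ones that edgeR called with postnatal day as a covariate is not reported here.

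The labels give no sex. *Xist*, which is transcribed from the inactive X chromosome, had 2756, 175 and 11235 fragments in the Evx-positive Neurons 1, 14 and 18 and 83 in the Evx-negative Neuron 4, with at most 3 in the other 13 (difference 2.04 in mean log2(FPKM + 1), exact permutation p = 0.0294, edgeR adjusted p = 0.0746). *Eif2s3y*, on the Y chromosome, was past 10 fragments in 3 of 6 and 10 of 11 neurons (exact permutation p = 0.0179). The other Y genes examined differed less, with *Ddx3y* in 3 of 6 and 8 of 11 (p = 0.747), *Kdm5d* in 2 of 6 and 7 of 11 (p = 0.277) and *Uty* in 3 of 6 and 8 of 11 (p = 0.137), all by exact permutation tests. Neurons 1, 14 and 18 held at most 3 fragments of any of these Y genes. The 13 neurons with at most 3 *Xist* fragments held 210 to 4403 of *Eif2s3y*. Neuron 4, which held *Xist*, had 361 fragments of *Kdm5d* and 0 of *Eif2s3y*. The part of sex in the differences between the groups was not tested.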
